A study of Mus musculus with 7 samples.

Results

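Chemokines are small secreted proteins that guide leukocytes, and chemokine receptors are G protein-coupled receptors on the cells that respond to them. The family is named by the spacing of a cysteine pair near the start of the mature protein: adjacent in the CC ligands, parted by 1 residue in the CXC ligands and by 3 in the CX3C ligand. In the heart, fibroblasts, endothelial cells and resident macrophages are known sources of ligands, and monocytes that carry Ccr2 are recruited by Ccl2 and its relatives. The genes described here are all rows of the count table whose symbol names a numbered Ccl, Cxcl, Ccr or Cxcr gene, Cx3cl1 or Cx3cr1. There were 56 of them among 24421 gene rows, 38 ligands and 18 receptors.

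The tissue was the left atrium of adult mice of the outbred CD1 strain, from which RNA was sequenced. A label says polyA mRNA-seq while the protocol names Ribo-Zero, so how the RNA was selected is not settled here. The study set 4 libraries with FOG2 overexpression beside 3 wild type libraries to ask which atrial transcripts differ when FOG2, the cofactor of GATA transcription factors encoded by Zfpm2, is raised. Animals of both groups, named DTG and NTG in the protocol, had been kept off doxycycline for 1 week before the hearts were taken. The sources used here do not give the promoter that drives FOG2, the sex of the animals or whether a library stands for 1 animal. The p-values therefore rest on differences among libraries of a group that could be technical.

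Reads counted to genes ranged from 5562520 to 8655655 per library, and 1371 to 2541 of them lay in the 56 chemokine rows. Levels are given as CPM, the counts of a gene scaled to the library's total. Zfpm2 was higher in all 4 overexpression libraries, 218 ± 54.2 CPM (SD, n = 4) against 30.7 ± 1.16 (SD, n = 3). Overexpression replicate 1 stood apart: it correlated across genes with the other overexpression libraries at r = 0.947 to 0.949, where those correlated with each other at 0.978 to 0.983. Atrial cardiomyocyte markers, all 9 with counts, summed to 151222 to 177602 CPM in wild type and 95097 to 135344 CPM in overexpression. By edgeR at an adjusted p under 0.05, 3 of the 9 were called lower, where 3.29% of all genes were. The log2 fold change was above 0 for 0 of the 9. The part of this lower sum in the chemokine values was not tested. Of 8 mural cell markers 2 were called higher, where 1.55% of all genes were. Y-linked transcripts summed to 545 CPM in overexpression replicate 1 and 557 CPM in wild type replicate 2, and to at most 0.578 CPM in the other 5. Results that rest on replicate 1 are therefore given with and without it.

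Of the 56 genes, 10 had no counts in any library, 26 had counts but too few to test, and 20 passed the filter on low counts, which asks for roughly 10 reads in at least 3 libraries. Those 20 were 15 ligands and 5 receptors. The coding sequences below show the signature that sorts the ligands on which the results turn, read 5′ to 3′ in the coding direction from GENCODE M21 transcripts, with the 2 cysteine codons in capitals and 4 codons on each side.
Ccl2: gccccactcaccTGCTGCtactcattcacc
Ccl7: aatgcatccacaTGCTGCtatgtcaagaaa
Ccl12: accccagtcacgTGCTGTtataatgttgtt
Cxcl12: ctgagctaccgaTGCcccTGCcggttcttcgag
Cxcl14: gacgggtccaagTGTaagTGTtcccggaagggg
Cx3cl1: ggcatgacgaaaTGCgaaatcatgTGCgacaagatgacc
In the mm10 build the capital codons, with any between them, lie in exon 2 of each transcript, at chr11:82036506-82036511 for Ccl2, chr11:82046538-82046543 for Ccl7 and chr11:82102634-82102639 for Ccl12, all on the plus strand. They lie at chr6:117171508-117171516 on the plus strand for Cxcl12, chr13:56295915-56295923 on the minus strand for Cxcl14 and chr8:94778051-94778065 on the plus strand for Cx3cl1. The CC pair of Ccl2, Ccl7 and Ccl12 has no codon between its cysteines, the CXC ligands have 1, and Cx3cl1 has 3.

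No chemokine gene passed the test between FOG2 overexpression and wild type with all 7 libraries. By edgeR's quasi-likelihood test 0 of the 20 tested genes were called at an adjusted p under 0.05, beside 4.84% of all 13295 genes tested (1.55% higher and 3.29% lower). At an unadjusted p under 0.05 there were 3 of 20, against 19.2% of all genes. DESeq2 called 1 of the 20, Ccl12, and limma-voom 0. The median log2 fold change of the 20 genes was 0.21, beside 0.02 over all genes, and 15 of the 20 had a positive value. Overexpression lay wholly above wild type for 3 of the 20, Ccl12, Ccl19 and Ccl24, and wholly below for 0, where 8.99% and 10.8% of all genes did so, 19.8% together.

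**Figure D1:**
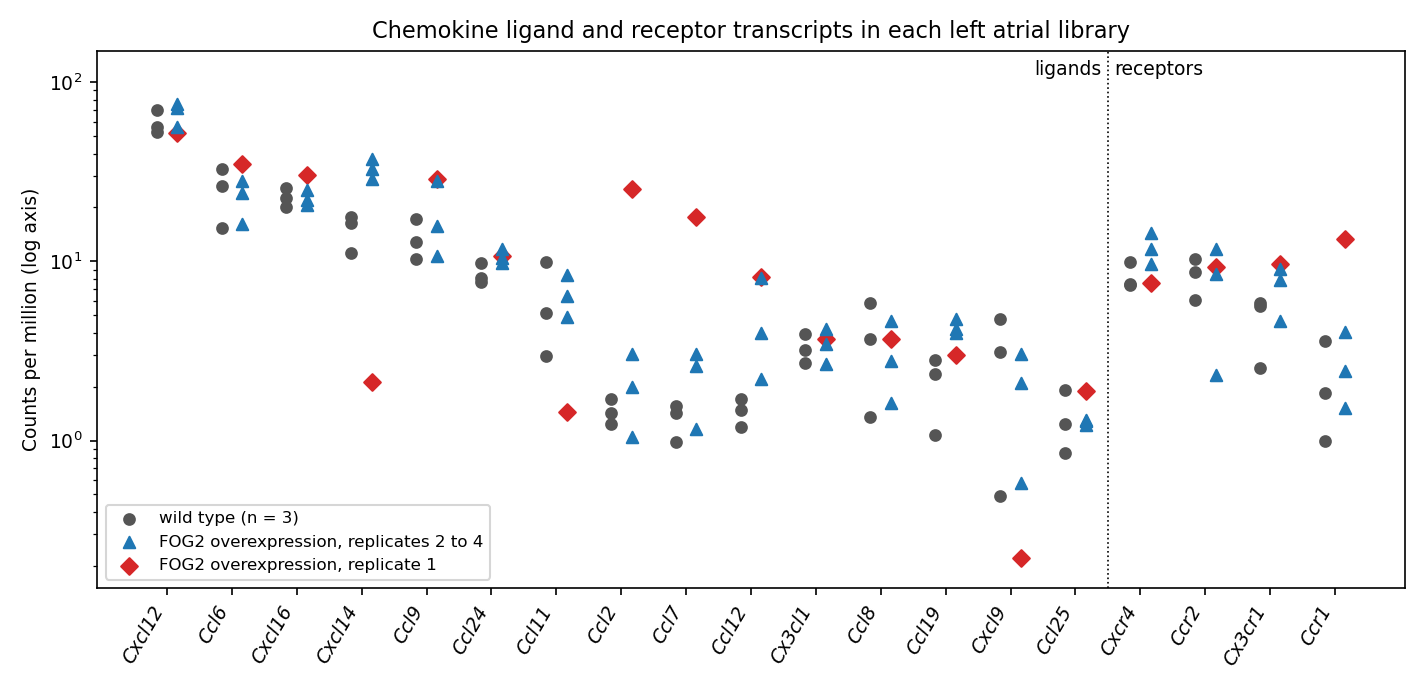
Of the 20 tested genes 19 are plotted along the x axis with their CPM in each library on a log y axis, with grey circles for wild type, blue triangles for overexpression replicates 2 to 4 and a red diamond for overexpression replicate 1. Replicate 1 lies far above the other libraries for Ccl2 (25.2 CPM) and Ccl7 (17.7 CPM) and far below them for Cxcl14 (2.11 CPM).

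The homeostatic ligand Cxcl12, which retains stem cells and lymphocytes through Cxcr4, took the most reads of the family. It held 18.5% to 31.6% of the chemokine counts of a library, the lowest share in overexpression replicate 1. Its level was 70.2, 52.5 and 56.5 CPM in wild type replicates 1 to 3 and 52.1, 71.6, 75.7 and 56.6 CPM in overexpression replicates 1 to 4. The groups overlapped over nearly their whole range (log2 fold change 0.09 ± 0.16, SE; edgeR adjusted p = 0.790). Cxcr4, its signalling receptor, had 7.39, 9.89 and 7.51 CPM in the wild type libraries and 7.55, 14.4, 11.7 and 9.66 CPM in overexpression. Replicate 1 sat at the wild type level, and the other 3 overexpression libraries lay close to or above the highest wild type library. The fitted difference of Cxcr4 was 0.38 ± 0.24 (adjusted p = 0.421), and 0.53 ± 0.20 without replicate 1 (adjusted p = 0.154). Ackr3, the scavenging receptor of Cxcl12, was outside the 56 rows and had 79.3 ± 12.1 CPM (SD, n = 3) and 75.3 ± 16.7 CPM (SD, n = 4), a difference of -0.07 ± 0.18 (adjusted p = 0.858) that turned to 0.05 with library totals only.

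Cxcl14, an epithelial and stromal ligand with no settled receptor, gave the clearest split among the overexpression libraries. Wild type replicates 1 to 3 held 11.1, 16.4 and 17.6 CPM, and overexpression replicates 1 to 4 held 2.11, 32.9, 37.2 and 28.9 CPM. Replicates 2, 3 and 4 all stood above every wild type library, while replicate 1 stood below every other library. In read counts replicate 1 had 19, against 93 to 248 in the other 6 libraries. With all libraries the log2 fold change was 0.74 ± 0.73 (SE; edgeR adjusted p = 0.631). Without replicate 1, Cxcl14 rose from 15.03 ± 3.47 to 33.0 ± 4.19 CPM (SD, n = 3 each), a log2 fold change of 1.13 ± 0.18 (adjusted p = 0.00300). It was then the 1 gene of the 20 that passed, where 8.73% of 13191 genes passed in that fit, 3.74% higher and 4.99% lower. In the 5 libraries without Y-linked transcripts, a choice added after the data were seen that also leaves out wild type replicate 2, the value was 1.196 (adjusted p = 0.00810). With all 7 libraries limma-voom gave 0.04.

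Fibroblast and mesothelial marker sums were also at an extreme in overexpression replicate 1. The summed level of the 8 fibroblast markers was 8688 CPM in overexpression replicate 1, the lowest of the 7 libraries, and 12251 to 14268 CPM in the other overexpression libraries, where wild type held 9303 to 11775. Summed mesothelial markers went the other way, with 811 CPM in replicate 1 against 421 to 569 in the other 6 libraries. All 8 fibroblast and all 6 mesothelial markers in the table had counts. By edgeR 0 of these markers were called, where 4.84% of all genes were. Without replicate 1 the number was also 0, where 8.73% of all genes were called. The part of these markers in the Cxcl14 result was not tested. In bulk atria, fewer cells of a type and less RNA per cell cannot be told apart. With the Y-linked level as covariate and all 7 libraries, the Cxcl14 difference was 0.31 (adjusted p = 0.848).

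Ccl2, Ccl7, Ccl12, Ccl8 and Ccl11 are neighbours on chromosome 11. Ccl2, Ccl7 and Ccl12 attract monocytes through Ccr2, mouse Ccl8 acts on Ccr8, and Ccl11 acts on Ccr3. They lie in the order Ccl2, Ccl7, Ccl11, Ccl12, Ccl8, all on the plus strand, from 82035571 to 82116799 in mm10. Ccl2 had 1.43, 1.69 and 1.23 CPM in the wild type libraries and 25.2, 3.03, 1.04 and 1.98 CPM in overexpression, or 227, 21, 6 and 17 reads in overexpression replicates 1 to 4. Replicate 1 was 17.4-fold above mean wild type, while replicate 3 was below every wild type library. The log2 fold change of Ccl2 was 2.45 ± 1.12 (adjusted p = 0.288), and 0.50 ± 0.41 without replicate 1 (adjusted p = 0.549). Ccl7 was also highest in replicate 1 and then in replicate 2, with 1.43, 1.55 and 0.985 CPM in the wild type libraries and 17.7, 3.03, 2.61 and 1.16 CPM in overexpression. Replicate 1 was 13.3-fold above mean wild type, and replicate 4 lay inside the wild type range. Its log2 fold change was 2.23 ± 0.94 (adjusted p = 0.249), and 0.74 ± 0.43 without replicate 1 (adjusted p = 0.367).

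Ccl12, a mouse ligand of Ccr2 close to Ccl2 in sequence, came nearest to the threshold with all libraries. Wild type held 1.19, 1.69 and 1.48 CPM and overexpression 8.22, 8.09, 4.001 and 2.21 CPM, which are 10, 12 and 12 reads against 74, 56, 23 and 19. Every overexpression library was above every wild type library. The means were 5.63 ± 3.005 CPM (SD, n = 4) and 1.46 ± 0.252 CPM (SD, n = 3), a log2 fold change of 1.95 ± 0.49 (edgeR adjusted p = 0.0577). Without replicate 1 it was 1.69 ± 0.48 (adjusted p = 0.0581). Of 16 alternatives 6 called it, with adjusted p = 0.0168 without overexpression replicate 4, 0.00558 with DESeq2, 0.0374 with no filter on low counts, 0.0426 with library totals only and 0.0430 when the Y-linked level was a covariate. In the other 10 its adjusted p reached 0.207 at most.

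Ccl11 and Ccl8, which lie on either side of Ccl12, did not share the high values of replicate 1. Ccl11, the eosinophil attractant eotaxin, had 5.13, 9.89 and 2.96 CPM in the wild type libraries and 1.44, 8.38, 4.87 and 6.40 CPM in overexpression, with replicate 1 the lowest of the 7 libraries. Its difference was -0.18 ± 0.57 (adjusted p = 0.891) and 0.15 ± 0.41 without replicate 1. Ccl8 had 5.84, 3.67 and 1.35 CPM and 3.67, 4.62, 2.78 and 1.63 CPM, ranges that overlapped (-0.20 ± 0.49, adjusted p = 0.863). Within this stretch of chromosome 11, replicate 1 was thus highest for 3 genes, lowest for 1 and within the range of the others for 1. For Ccl12, 1 of the 3, it barely exceeded replicate 2, at 8.22 against 8.09 CPM. The summed level of 7 monocyte markers was 94.9 to 204 CPM in wild type and 132 to 298 CPM in overexpression, highest in replicate 1, with Ear2 at 0 throughout. In replicate 1 nearly all of that sum came from Ace at 159 CPM and Nr4a1 at 135. Plac8 had 1.33, Treml4 0.889, Chil3 0.777 and Ly6c2 0.111 CPM there, so the sum is no measure of monocyte number. By edgeR 0 of the 3 monocyte markers tested were called, with 2 at an unadjusted p under 0.05, where 19.2% of all genes were. Without replicate 1 Plac8 was called higher (1.84 ± 0.41, adjusted p = 0.0184). The part of monocytes in the chromosome 11 values was not tested.

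**Figure D2:**
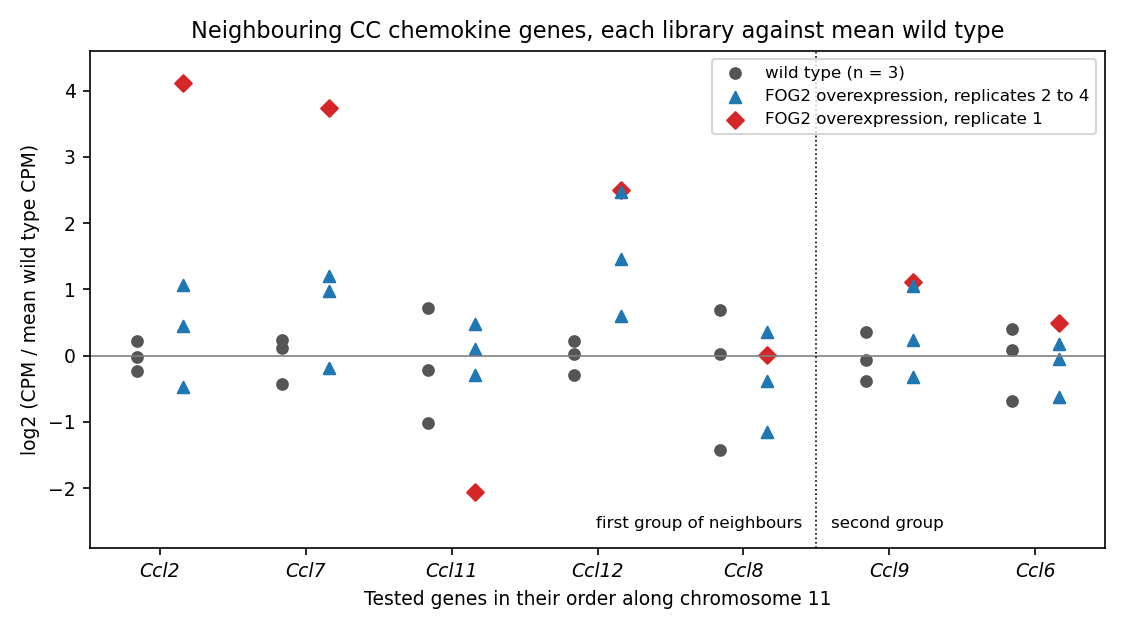
The x axis lists the tested CC chemokine genes in their order along chromosome 11 and the y axis gives the log2 ratio of each library's CPM to the mean wild type CPM, with the symbols for wild type, overexpression replicates 2 to 4 and replicate 1 given in the key and a dotted line between the first and the second group of neighbours. Replicate 1 (red) is the highest point for Ccl2, Ccl7 and Ccl12 and the lowest for Ccl11, and for Ccl12 all 4 overexpression points lie above the 3 wild type points.

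A second group of CC ligands lies farther along the same chromosome, from 83525778 to 83664683. Its tested members were Ccl6 and Ccl9, myeloid ligands of Ccr1. Ccl6 had 32.9, 26.3 and 15.4 CPM in the wild type libraries and 35.1, 28.0, 16.2 and 24.0 CPM in overexpression, which overlapped (0.06 ± 0.30, adjusted p = 0.932). Ccl9 had 17.2, 12.9 and 10.3 CPM in the wild type libraries and 29.0, 28.0, 10.8 and 15.8 CPM in overexpression. Replicates 1 and 2 were above every wild type library and replicates 3 and 4 were not (0.64 ± 0.35, adjusted p = 0.370). The inflammatory ligands Ccl3, Ccl4 and Ccl5 of this group were too low to test. Ccl3 had 2 reads over the 3 wild type libraries and 11 over the 4 overexpression libraries, 6 of them in replicate 1. Ccl4 had 5 and 12 reads, 9 of the latter in replicate 1, and Ccl5 had 18 and 28 reads.

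The lymphoid ligand Ccl19, which guides dendritic cells and naive T cells through Ccr7, was higher in each overexpression library than in any wild type library. It had 1.07, 2.82 and 2.34 CPM in the wild type libraries and 2.999, 4.19, 4.001 and 4.77 CPM in overexpression, a log2 fold change of 0.94 ± 0.35 (edgeR adjusted p = 0.189). Without replicate 1 it was 1.07 ± 0.34 (adjusted p = 0.0859). Ccr7 itself had 6 reads in each group over all libraries. Ccl21a, Ccl21b and Ccl21c, the other ligands of Ccr7, were listed at 0 throughout. These are near-identical copies, and reads that aligned to several places were counted apart in this table, so a 0 there says nothing of their level.

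Ccl24, the other eosinophil attractant measured, had little spread. It had 9.78, 8.05 and 7.64 CPM in the wild type libraries and 10.7, 9.82, 11.7 and 10.5 CPM in overexpression. The groups did not overlap, by a margin of 9.78 against 9.82 CPM, and the difference was 0.32 ± 0.16 (adjusted p = 0.312). Its receptor Ccr3 had 5 reads in wild type and 11 in overexpression and was not tested.

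Cxcl16 and Cx3cl1, the chemokines made as membrane-bound proteins and shed by Adam10 and Adam17, overlapped between the groups. Cxcl16 had 22.7, 20.2 and 25.7 CPM in the wild type libraries and 30.5, 25.1, 20.5 and 21.99 CPM in overexpression (0.11 ± 0.16, adjusted p = 0.765). Its exons share 552 bases with Zmynd15 on the opposite strand, and since the strand setting of the counting is not given, reads there cannot be told apart. Cx3cl1 had 3.22, 3.95 and 2.71 CPM and 3.67, 4.19, 3.48 and 2.68 CPM (0.09 ± 0.27, adjusted p = 0.889). Adam10 and Adam17 had log2 fold changes of -0.06 ± 0.10 and 0.25 ± 0.11, and neither passed the test. Cx3cr1, the fractalkine receptor of resident macrophages and patrolling monocytes, had 5.84, 2.54 and 5.67 CPM in the wild type libraries and 9.66, 9.10, 7.83 and 4.65 CPM in overexpression. Replicates 1 to 3 stood above every wild type library and replicate 4 inside their range (0.73 ± 0.35, adjusted p = 0.298). Its exons share 78 bases with the antisense gene Gm33858, which is subject to the same limit. Cxcr6, the receptor of Cxcl16, had 24 reads in wild type and 34 in overexpression and was not tested.

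Among the interferon-induced ligands of Cxcr3, only Cxcl9 was high enough to test. It had 4.77, 3.11 and 0.493 CPM in the wild type libraries and 0.222, 3.03, 2.09 and 0.582 CPM in overexpression, so that the libraries of each group spread over about the same range (-0.98 ± 0.86, adjusted p = 0.582). Without replicate 1, which was the lowest, the difference was -0.60 ± 0.78 (adjusted p = 0.731). Cxcl10 had 19 reads in wild type and 31 in overexpression, Cxcl11 had 0 and 2, and Cxcr3, a receptor of effector T cells, 19 and 16. The neutrophil ligands were low. Cxcl1 had 8, 4 and 9 reads in wild type and 36, 5, 13 and 9 in overexpression, again highest in replicate 1. Cxcl2 had 2 and 6 reads in the 2 groups, 5 of the latter in replicate 1, Cxcl5 had 9 and 6, and Cxcl3 was at 0. Their receptor Cxcr2 had 13 and 21 reads, and Cxcr1 none.

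Of the inflammatory receptors, Ccr1 followed replicate 1. It had 3.58, 0.989 and 1.85 CPM in the wild type libraries and 13.3, 4.04, 2.44 and 1.51 CPM in overexpression. Only replicates 1 and 2 exceeded the highest wild type library (1.32 ± 0.79, adjusted p = 0.408). Without replicate 1 the log2 fold change was 0.27 ± 0.50 (adjusted p = 0.812). Ccr2, the receptor of Ccl2, Ccl7 and Ccl12, did not follow its ligands: it had 10.4, 6.07 and 8.74 CPM in the wild type libraries and 9.33, 11.7, 8.52 and 2.33 CPM in overexpression (-0.09 ± 0.45, adjusted p = 0.937). That near-zero difference was 0.04 with library totals only.

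**Figure D3:**
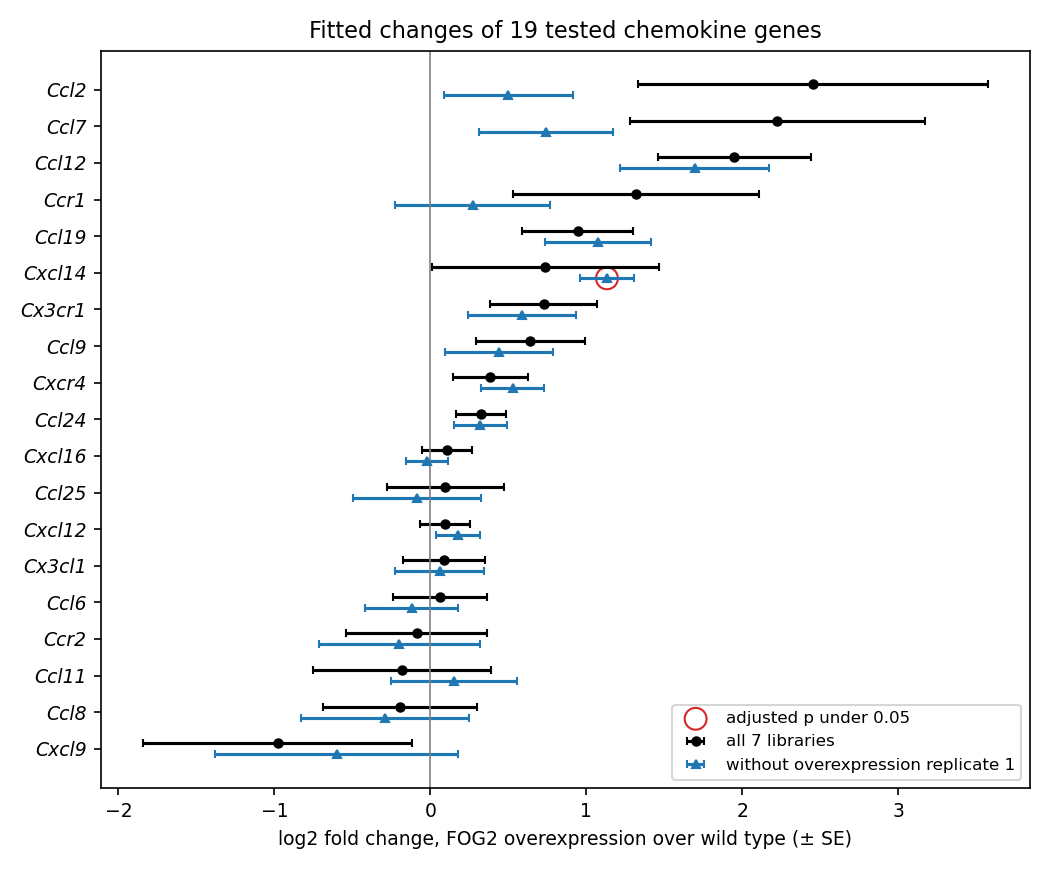
The x axis gives the log2 fold change of overexpression over wild type with its standard error for 19 of the 20 tested genes on the y axis, in black with all 7 libraries and in blue without overexpression replicate 1. Leaving out that library brings Ccl2 from 2.45 to 0.50 and Ccl7 from 2.23 to 0.74, changes Ccl12 little, and narrows the error of Cxcl14, the 1 gene circled for an adjusted p under 0.05.

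Over the tested genes, overexpression replicate 1 stood more than 2-fold above every other library for 3 of 20, Ccl2, Ccl7 and Ccr1, where 2.17% of all genes did so. It stood more than 2-fold below every other library for 3 of 20, Cxcl14, Ccl11 and Cxcl9, where 1.09% of all genes did so. For Cxcl9 this rests on 2 reads in replicate 1 against 4 in wild type replicate 3, the next lowest library. Ccl11 had 13 reads against 24 in the same 2 libraries, only just past the 2-fold limit. The 6 chemokine genes with the most reads, Cxcl12, Ccl6, Cxcl16, Cxcl14, Ccl9 and Ccl24, held 56.5% of the chemokine reads in replicate 1 and 67.4% to 75.5% in the other libraries. Summed macrophage markers in replicate 1 were 1025 CPM, within the 863 to 1195 CPM of the other overexpression libraries, with none of the 14 markers at 0 in all libraries. Il6, a cytokine of the inducer list, had 2.33 CPM in replicate 1 and at most 0.596 CPM in the others. Tnf and Il1b of the same list had 0.889 and 0.777 CPM in replicate 1. In the others they reached 1.31 and 1.51 CPM, so neither was highest in replicate 1. Alas2, the 1 erythroid marker of 5 with counts, had 221 CPM there against 25.8 to 105 CPM in the other 6. The part of these in the high Ccl2 and Ccl7 was not tested.

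Per kilobase of merged exons, which allows levels to be set between genes, Ccl6 had the highest wild type level (13.8 ± 4.93 CPM per kilobase, SD, n = 3), followed by Cxcl14 (8.23 ± 1.90), Cxcl16 (7.57 ± 0.920), Cxcl12 (7.31 ± 1.14), Ccl8 (7.09 ± 4.39) and Ccl24 (6.55 ± 0.878). The means from Cxcl14 to Ccl24 differ by less than their spread. The highest receptor was Cxcr4 (4.57 ± 0.778), and Ccr2, Cx3cr1 and Ccr1 lay between 0.755 and 1.24. Ccl12 moved from the tenth place among the 20 genes in wild type (2.71 ± 0.469) to the third in overexpression (10.5 ± 5.60, SD, n = 4). Ccl25 was lowest in both groups (0.179 ± 0.0721 and 0.191 ± 0.0421), with 1.91, 0.847 and 1.23 CPM in the wild type libraries and 1.89, 1.30, 1.22 and 1.28 CPM in overexpression (0.10 ± 0.38, adjusted p = 0.913). Its exons overlap those of Elavl1 on the other strand by 204 bases.

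The 26 genes with counts that were too low to test, 15 ligands and 11 receptors, had 1 to 84 reads over the 7 libraries, and 10 of them fewer than 10. Besides those given above, Ccl27a, a skin-homing ligand, had 18 reads in wild type and 43 in overexpression, Ccl28, a mucosal ligand, 13 and 18, and Ccl22, made by dendritic cells, 8 and 4. Cxcl13, the B cell attractant, had 5 and 6 reads, and its receptor Cxcr5 3 and 2. Ccr9 had 6 and 4, Ccr6 5 and 3, Cxcl17 4 and 5, and Ccr10, Ccr8, Ccr1l1, Ccl17 and Cxcl15 at most 4 in all. At 0 in every library were Ccl1, Ccl20, Ccl26, Ccl27b and Ccr4 beside the Ccl21 copies, Cxcl3 and Cxcr1. For a gene whose reads align to 1 place only, a count of 0 allows up to 3 reads, or 0.333 to 0.522 CPM per library. That limit does not hold for the Ccl21 copies or any other near-identical copy.

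Leukocytes carry chemokine receptors, so the receptor transcripts are set beside leukocyte markers. Which cells gave the receptor reads was not tested. The 18 receptors summed to 36.3, 23.0 and 30.3 CPM in the wild type libraries and 48.2, 47.2, 34.6 and 21.6 CPM in overexpression, and 5 genes of all leukocytes to 74.9, 57.6 and 56.9 CPM and 84.5, 101, 66.3 and 61.0 CPM. Both sums overlapped between the groups. The receptor sum was 48.4%, 40.0% and 53.2% of the leukocyte sum in wild type and 57.0%, 46.6%, 52.2% and 35.5% in overexpression. Ptprc, the pan-leukocyte CD45 gene, had 21.3 ± 3.66 CPM (SD, n = 3) and 25.9 ± 5.97 CPM (SD, n = 4), with a log2 fold change of 0.28 ± 0.19 (adjusted p = 0.469). Of the 5 leukocyte and 14 macrophage markers tested, 0 were called by edgeR, where 4.84% of all genes were. At an unadjusted p under 0.05 there were 1 and 2 of them, against 19.2% of all genes. Neutrophil, T cell and B cell lists summed to 4.10 to 13.7, 4.19 to 9.74 and 1.40 to 3.25 CPM over the 7 libraries, with Elane at 0 throughout.

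**Figure D4:**
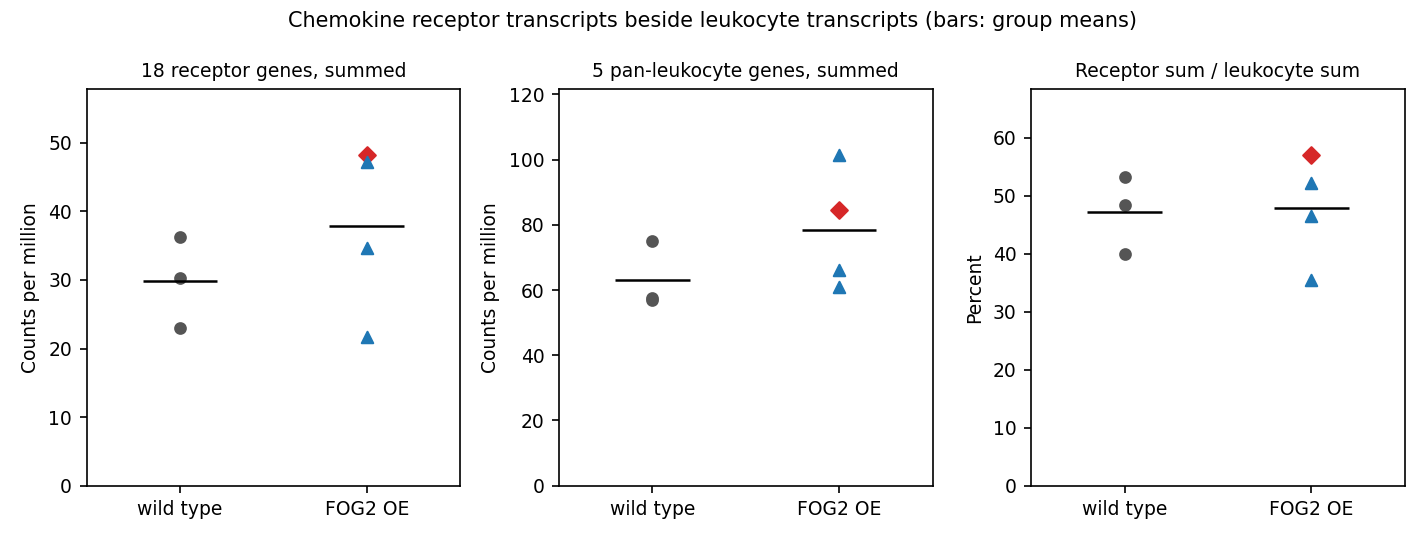
The 3 panels give, for each library, the summed CPM of the 18 receptor genes, the summed CPM of 5 genes of all leukocytes, and the first as a percent of the second, with wild type and overexpression on the x axis and bars for group means. Circles are wild type, triangles overexpression replicates 2 to 4 and the diamond replicate 1, and in each panel the groups overlap.

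Other genes that chemokines act with were tested from lists. The first list held genes that bind, present, cleave or scavenge chemokines, and also further attractants such as Pf4 and Mif and receptors of attractants. Of its 15 tested genes, Sdc4 rose and Ccrl2 fell, where 1.55% of all genes rose and 3.29% fell. Sdc4, a heparan sulfate proteoglycan that binds chemokines, rose from 60.5 ± 12.3 CPM (SD, n = 3) to 131 ± 24.2 CPM (SD, n = 4), with 121, 109, 129 and 165 CPM in the overexpression libraries, all above wild type (1.11 ± 0.18, edgeR adjusted p = 0.00917). Ccrl2, an atypical receptor that binds the attractant chemerin, fell from 17.0 ± 2.79 to 9.02 ± 1.26 CPM, with 7.997, 8.38, 8.87 and 10.8 CPM in overexpression (-0.91 ± 0.17, adjusted p = 0.0163). Its call was lost without wild type replicate 2 (adjusted p = 0.0943) and without overexpression replicate 2 (adjusted p = 0.0508). Pf4, the platelet chemokine Cxcl4, had 22.1, 18.9 and 18.1 CPM in the wild type libraries and 31.1, 38.3, 22.1 and 31.0 CPM in overexpression, and did not pass (0.64 ± 0.18, adjusted p = 0.0824), though it did with DESeq2 (adjusted p = 0.0317) and without overexpression replicate 3 (adjusted p = 0.0313). Ackr1, the endothelial scavenger, had at most 0.369 CPM in any library.

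Of 26 tested genes of signalling behind the receptors, Gnai1 rose and Adrbk2 fell, a count near the 4.84% of all genes called. Gnai1, an inhibitory G protein subunit through which these and many other receptors act, had 19.9, 19.6 and 19.95 CPM in the wild type libraries and 37.0, 35.4, 36.2 and 45.4 CPM in overexpression (0.96 ± 0.12, adjusted p = 0.00250). Adrbk2, a kinase that desensitises G protein-coupled receptors, fell from 90.2 ± 5.55 to 57.5 ± 11.9 CPM (-0.65 ± 0.15, adjusted p = 0.0468). That call was lost without any 1 of wild type replicates 1, 2 and 3 or overexpression replicates 2 and 3, at adjusted p = 0.135, 0.190, 0.112, 0.112 and 0.0575. It was also lost with library totals only (adjusted p = 0.0620) and in the 5 libraries without Y-linked transcripts (adjusted p = 0.0768), in all in 7 of 16 alternatives. The kinase gene Grk5 had -0.54 ± 0.17 (adjusted p = 0.112), and -0.69 ± 0.14 without overexpression replicate 1 (adjusted p = 0.0123). Gnai2, the subunit most used by leukocyte chemokine receptors, had 0.19 ± 0.09 (adjusted p = 0.327). Neither list is specific to chemokines, since many other receptors use these genes.

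Genes that induce chemokines, and adhesion genes that act with them in leukocyte entry, gave 0 calls by edgeR in 19 and 15 tested genes. At an unadjusted p under 0.05 there were 5 and 6, against 19.2% of all genes. DESeq2 called 2 of the 34, Vcam1 and F11r, and 1141 of all 13295 genes. Of the 19 inducers, 5 lay above wild type in every overexpression library, where 8.99% of all genes did so. They were Csf1 (0.29 ± 0.11), Nfkb1 (0.27 ± 0.09), Rela (0.26 ± 0.11), Stat3 (0.30 ± 0.10) and Tnfaip3, and the adjusted p of the first 4 was 0.210, 0.145, 0.234 and 0.145. Tnfaip3, a target and inhibitor of the NF-kB pathway, had 4.75 ± 0.948 and 7.55 ± 1.66 CPM (0.67 ± 0.24, adjusted p = 0.175). Tnf, Il1b and Il6 were below the filter. Of the 15 adhesion genes, 4 lay wholly above wild type and 2 wholly below, where 8.99% and 10.8% of all genes did so. Beside Vcam1, those above were the leukocyte integrin genes Itgb2 (0.61 ± 0.18, adjusted p = 0.0919) and Itga4 (0.56 ± 0.18, adjusted p = 0.131), and Cd44 (0.61 ± 0.23, adjusted p = 0.202). Those below were F11r and Jam2 (-0.35 ± 0.13, adjusted p = 0.175). Vcam1, an endothelial adhesion molecule, had 129, 109 and 105 CPM in the wild type libraries and 196, 168, 144 and 145 CPM in overexpression (0.51 ± 0.14, adjusted p = 0.0670), and it passed without overexpression replicate 1 (0.41 ± 0.11, adjusted p = 0.0401). The junction molecule F11r had -0.48 ± 0.14 (adjusted p = 0.0850), and also passed without that library (-0.55 ± 0.13, adjusted p = 0.0272).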

How the data were processed

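The authors deposited 1 table of raw counts per gene, with 1 column per library; per the submitters' processing notes, STAR, HTSeq 0.6.0 and DESeq2 were used with mm10, with no roles stated. The strand setting is not given in the sources used here. Rows naming no gene were left out, so that 27.8% to 33.1% of a library's reads were used. All 7 columns were mapped by name. After filterByExpr (minimum count 10, total 15) and TMM scaling, the groups were compared in R 4.3.3 by edgeR 4.0.16, with its robust two-sided quasi-likelihood F test and no covariate. P-values were adjusted by Benjamini-Hochberg over 13295 genes, and 0.05 was the limit. A standard error is the size of the log2 fold change divided by the square root of F. CPM uses TMM-scaled totals. Positions and exon lengths came from GENCODE M21 (mm10), which held 55 of the 56 symbols. Cysteine codons were found by translating the longest coding transcript and searching past codon 22.

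Of the tested genes, 1 is not reported here. The genes and lists were chosen with earlier results of these data known. Of the chemokine genes, all with a passing count were to be given by library, with full statistics for called genes and the 8 with the smallest p. Of other lists, at most 4 called genes and Ackr3, Ackr1, Pf4 and Ptprc were to be named; all others were named after their values were seen. Adrbk2 and Grk5 stand under the symbols of the table. Alternatives changed the scaling (RLE, or library totals only), the filter (none, or 1 CPM in 3 libraries), the tool (DESeq2 1.42.0, or voom of limma 3.58.1) and the model (replicate number as a block, or Y-linked level as covariate), or left out each library in turn. The fit on the 5 libraries lacking Y-linked transcripts was chosen after seeing the data. The test was checked on simulated counts with known changes. It recovered 24.7% of changes of fold 1.5, 57.4% of fold 2 and 87.3% of fold 4, with 7 false calls among 112. Smaller changes can therefore go uncalled.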

Additional observations from a re-analysis of the deposited data

Results flagged for a closer look

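Among the 4 overexpression libraries, 4 of 30 genes examined had a highest or lowest library whose gap to its nearest neighbour exceeded Dixon's critical value, as a share of the group's range; chance flags about 1 in 20 groups. Ccl2 was highest in replicate 1 at 25.2 CPM, with the next library at 3.03 CPM. Ccl7 was highest in the same library at 17.7 CPM, next 3.03 CPM. Ccl25 was highest there too, at 1.89 CPM and next 1.30 CPM, a gap of a few reads. Gnai1 was highest in replicate 4, at 45.4 CPM, next 37.0 CPM.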

How the results depend on the processing

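The chemokine genes called numbered 1 in place of 0 with library totals only, no filter, DESeq2, the replicate block and the Y-linked covariate, each time Ccl12, and in the 5 libraries without Y-linked transcripts, where it was Cxcl14; over single libraries left out the number ran from 0 to 1. Their median log2 fold change stayed within the spread of the overexpression libraries in all 16 alternatives, and Zfpm2 was called in all 16. Library totals only moved the median of all genes from 0.02 to 0.15, and the differences given with it are to be read against that shift. Calls among all genes numbered 644, against 1141 with DESeq2 and 382 with the replicate block, and 256 to 1151 without 1 library. Calls in the inducer and adhesion lists went from 0 to 3 with library totals only and 2 with DESeq2, and 0 to 2 without 1 library; those in the partner and signalling lists went from 4 to between 2 and 5 without 1 library. The following uncalled differences changed sign, and the cause was not tested. With library totals only Ccr2 stood at 0.042 and Ackr3 at 0.052; with the replicate block Ccl8 at 0.14 and Ccr2 at 0.24; in the libraries without Y-linked transcripts Ccl11 at 0.70, Ccl25 at -0.31, Ccl6 at -0.082, Ccr1 at -0.050 and Cxcl16 at -0.10. Without 1 library at a time the ranges were -0.51 to 0.37 for Ccl11, -0.13 to 0.45 for Ccl25, -0.19 to 0.32 for Ccl6, -0.59 to 0.34 for Ccl8, -0.33 to 0.22 for Ccr2, -0.035 to 0.23 for Cx3cl1, -0.020 to 0.20 for Cxcl16 and -0.23 to 0.029 for Ackr3. Replicate numbers were shared by label only: deviations of same-numbered libraries correlated at 0.079, 0.014 and 0.072, and wild type replicate 2 correlated best with overexpression replicate 4 (0.152). Ccl12 was called with that pairing (2.17, adjusted p = 0.0285). At 1 to 84 reads in all, 26 genes were beyond the depth of this table, and a fit without a filter called none of them.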

Other observations

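Cxcl9 is a ligand induced by interferon gamma, and genes of antigen presentation that are known to respond to the same cytokine spread between libraries in a like manner. Cd74, the invariant chain, had 68.3, 56.4 and 21.3 CPM in wild type replicates 1 to 3 and 9.11, 64.8, 20.5 and 5.82 CPM in overexpression replicates 1 to 4. H2-Ab1, a class II chain, had 22.1, 17.4 and 9.73 CPM and 3.67, 24.0, 6.09 and 3.72 CPM. Overexpression replicates 1 and 4 were the lowest and replicate 2 among the highest for both, as for Cxcl9, where wild type replicate 3 was also low. Neither passed the test (adjusted p = 0.557 and 0.547). Ms4a1, the B cell gene CD20, had 5 reads in each wild type library and 1, 1, 0 and 2 in the overexpression libraries, too few to test. These genes were picked after their values were seen.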
